A study of Mus musculus with 48 samples.

Results

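Whole-cell RNA of mouse embryonic stem cells was followed from 60 to 120 min after transcription was blocked, the middle interval of a decay time course. The members are the 6 libraries whose titles name total RNA at 60 or at 120 min, out of 48 libraries in the series, and the 13742 genes listed in all 6 of them, out of 19161 genes listed in at least 1. The cells were E14TG2a, a feeder-independent line of mouse embryonic stem cells kept naive by LIF and a pair of kinase inhibitors (2i). Both groups had received 1 µM flavopiridol, for 60 min in one group and for 120 min in the other, and each group held 3 libraries from independently passaged cultures. RNA came from the unfractionated extract and was selected for poly(A) before sequencing. The other libraries of the series cover nuclear, cytosolic and membrane fractions and further time points of 30 and 240 min.

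Flavopiridol inhibits CDK9, the kinase of P-TEFb, which releases RNA polymerase II from its pause near the promoter. Once new transcripts stop appearing, the level of an mRNA falls at a pace set by its decay, which usually starts with shortening of the poly(A) tail and goes on with decapping and digestion from either end. mRNAs of transcription factors, cell cycle regulators and signalling feedback genes are known for short lives. mRNAs for ribosomal proteins and metabolic enzymes are known for long ones. In a bulk extract selected for poly(A), a loss of the molecule and a loss of its tail cannot be told apart, nor can fewer cells of a type and less RNA per cell.

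Each value is a gene's level relative to its level at 0 min, so that 1 means no change and 0.5 means a loss of 0.5 of the starting level. In the words used here, the log2 difference is the mean log2 ratio at 120 min minus that at 60 min, and a log2 difference of -1 over these 60 min corresponds to an interval half-life of 60 min. A gene was called lower or higher at 120 min when limma, a linear model fitted over all 13742 genes, gave a Benjamini-Hochberg adjusted p under 0.05. The interval half-life is 60 min divided by the size of the negative log2 difference, and errors are standard errors (SE) unless named otherwise.

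The median gene stood at 0.689, 0.707 and 0.781 of its starting level in the 3 libraries at 60 min, and at 0.495, 0.597 and 0.604 in the 3 libraries at 120 min. Replicate 1 at 120 min was therefore lower than its group, while the 2 groups did not overlap. Whole reads inferred from the ratios numbered at least 4783347 to 5164653 per library. Replicate 1 at 120 min held 4943164 of them, between the other 2 libraries at that time, but in the authors' scaling a read counted 0.836 in it and 1.02 and 1.01 in the others. Of the 8 stem cell markers checked, 7 were listed in all 6 libraries, and together they held 43528 to 52512 inferred reads per library. The listed markers of primitive endoderm summed to 2 to 12 reads per library and those of fibroblasts to 0 to 3. Trophectoderm markers summed to 17 to 48 reads and neural markers to 14 to 76.

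The question of this comparison was which transcripts were lost in the second hour of the block. The median log2 difference over all genes was -0.36, so that 77.7% of the 60 min level remained at 120 min, an interval half-life of 165 min. The 5% of genes that fell most had log2 differences of -1.62 or less, an interval half-life of 36.9 min or shorter. limma called 1668 genes lower at 120 min, which is 12.1% of the genes tested, and 37 genes higher, which is 0.269%. Of the genes called lower, 1152 had log2 differences of -1 or less. Without replicate 1 at 120 min, 879 genes were called lower and 40 higher. Leaving out any one of the other 5 libraries left 0 calls in either direction, with 3176 to 4232 genes at an unadjusted p under 0.05. Fewer samples entered these fits. Relative to the median gene of each library, 409 genes were lower and 122 higher.

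In the plot of mean levels nearly all called genes lie below the diagonal. Non-overlap of the libraries was commoner than a call: in 5428 genes, 39.5% of those tested, every library at 120 min was lower than every library at 60 min, and in 211 genes, 1.54%, every library was higher.

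**Figure D1:**
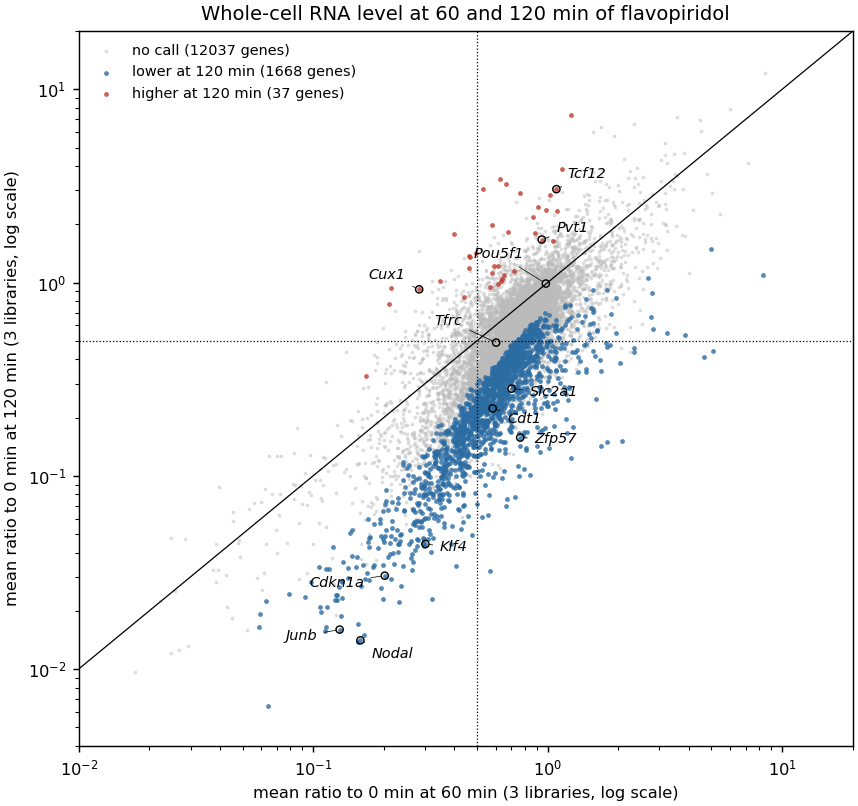
Mean ratio to 0 min at 60 min (x) against 120 min (y) for 13742 genes, both axes logarithmic, with called genes coloured, the diagonal of no change and dotted lines at 0.5. The 1668 genes called lower sit below the diagonal and the 37 called higher above it, and Klf4, Nodal and Junb lie near the lower left while Pou5f1 lies at about 1 on both axes.

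Immediate early response genes, whose products act in the first hour of a signal, had the lowest median of the 29 gene lists examined. Of 21 members tested, 15 were called lower, 71.4% against 12.1% of all genes, and 0 higher. The median log2 difference was -2.27, an interval half-life of 26.4 min. Ier5l, a relative of the immediate early gene Ier2, stood at 0.206, 0.108 and 0.151 at 60 min and at 0.0135, 0.00942 and 0.0186 at 120 min. All 3 later libraries of Ier5l were far below the earlier ones, with a log2 difference of -3.49 ± 0.39 (SE, n = 3 per group) and an adjusted p of 0.0208, the smallest in the limma fit. Ier2 went from 0.142, 0.125 and 0.132 to 0.0249, 0.0225 and 0.0222, a log2 difference of -2.52 ± 0.25. The libraries of Ier2 agreed closely within each time and its interval half-life was 23.8 min (21.7 to 26.4 min at 1 SE).

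Junb, a subunit of the AP-1 transcription factor, fell from 0.144, 0.0890 and 0.156 to 0.0286, 0.0117 and 0.00768. Its log2 difference was -3.20 ± 0.54, on a mean of 17.5 inferred reads. Dusp1, a phosphatase that switches off MAP kinases, fell from 0.0869, 0.0386 and 0.0668 to 0.00868, 0.00530 and 0.00524, but rested on a mean of only 6.17 inferred reads. Most of these mRNAs were low before the interval began: 16 of the 21 were under 0.5 in all 3 libraries at 60 min, and 1, Jund, was above 0.5 at 60 min and below it at 120 min in every library. Fos, the other well-known AP-1 subunit, had 0.0237, 0.0226 and 0.0994 at 60 min and 0.0711, 0.0217 and 0.0215 at 120 min, with overlapping groups, an adjusted p of 0.856 and a mean of 2 inferred reads. Zfp36l1 and Zfp36l2, members of the family of proteins that bind AU-rich elements and recruit deadenylases, had log2 differences of -1.05 ± 0.37 and -0.50 ± 0.26 and were not called. Dusp1, Jund and both Zfp36-like genes were named after their values were seen.

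Targets and feedback genes of BMP, Nodal, Wnt, LIF and FGF signalling came next, with a median log2 difference of -1.36. Of 19 tested members 11 were called lower, 57.9% against 12.1% of all genes, and 0 higher. Without replicate 1 at 120 min 6 were called lower, and relative to the median gene 5. Nodal, a ligand of the TGF-beta family that acts on its own transcription in early embryos (ENSMUSG00000037171, GRCm38 chr10:61417972-61425338, plus strand), had ratios of 0.159, 0.133 and 0.185 at 60 min. At 120 min the ratios of Nodal were 0.0146, 0.0133 and 0.0143, so that 8.92% of its 60 min level was left, an interval half-life of 17.2 min. Bambi, a decoy receptor that dampens BMP signals, fell from 0.232, 0.174 and 0.255 to 0.0274, 0.0334 and 0.0441. Cdx1, a homeobox gene that Wnt signals activate, had 0.587, 0.734 and 0.491 at 60 min and 0.753, 0.644 and 0.561 at 120 min, and its groups overlapped (log2 difference 0.12 ± 0.21, adjusted p = 0.713). The list held both ends of the range: 16 of 19 members did not overlap and were lower, against 39.5% of all genes.

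Naive and core pluripotency genes split into mRNAs that were lost and mRNAs that stayed. Of 22 tested members 8 were called lower, against 12.1% of all genes, and 0 higher, and the median log2 difference was -0.67. In 15 members the libraries at 120 min were lower with no overlap, against 39.5% of all genes. Klf4, a factor of the naive state (ENSMUSG00000003032, chr4:55527143-55532466, minus strand), went from 0.311, 0.259 and 0.335 to 0.0374, 0.0481 and 0.0474. That was a log2 difference of -2.77 ± 0.27 and an interval half-life of 21.7 min. Klf2, its close relative, went from 0.316, 0.250 and 0.326 to 0.0462, 0.0487 and 0.0456, and Fgf4, the growth factor that stem cells secrete, went from 0.112, 0.0964 and 0.133 to 0.0138, 0.0166 and 0.0189. These genes fell side by side, with 14.7%, 15.8% and 14.5% of the 60 min level left.

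Of the members described next, Sox2, Klf5, Sall4, Prdm14, Utf1, Nanog and Nr0b1 were named after their values were seen. Sox2, which binds DNA together with the product of Pou5f1, went from 0.277, 0.237 and 0.316 to 0.0388, 0.0508 and 0.0522 and kept 17.1% of its 60 min level. Pou5f1 itself stood at 0.926, 1.01 and 1.01 at 60 min and at 0.905, 1.09 and 0.973 at 120 min, with a log2 difference of 0.01 ± 0.13 and an adjusted p of 0.980. The mRNAs of this pair of partner factors thus differed widely in the interval, 1 called lower and 1 with overlapping groups near its starting level.

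Klf5 and Sall4, other transcription factors of the naive state, were called lower with log2 differences of -1.79 ± 0.23 and -1.38 ± 0.22. Prdm14, a repressor of differentiation genes, and Utf1, a chromatin protein of stem cells, were called lower by about 1 unit, with log2 differences of -1.02 ± 0.22 and -0.98 ± 0.18 and interval half-lives of 58.6 and 61.0 min. Nanog had 0.673, 0.672 and 0.736 at 60 min and 0.349, 0.518 and 0.530 at 120 min, which did not overlap but gave an adjusted p of 0.105. Dppa5a, an RNA-binding protein and marker of pluripotent cells, had 0.969, 1.05 and 1.03 at 60 min and 0.790, 1.11 and 1.19 at 120 min. Nr0b1, a nuclear receptor of the naive state, had a log2 difference of 0.04 ± 0.12, and neither of the last 2 was called.

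The Zfp, Klf, Sox, Fox, Pou and Gata gene families of sequence-specific transcription factors, taken by numbered symbols, held 299 tested members. Of these 129 were called lower, 43.1% against 12.1% of all genes, and 0 higher, with a median log2 difference of -1.10. Without replicate 1 at 120 min 65 were lower and 1 higher, and relative to the median gene 59 were lower and 2 higher. Most of them were Zfp genes, which encode zinc finger proteins: 108 of 254 were called lower, 247 had a log2 difference below 0, and their median was -1.09. Among Klf genes 9 of 14 were called lower with a median of -1.66, and among Sox genes 5 of 8 with a median of -1.57. Among Fox genes 5 of 17 were called lower with a median of -0.85.

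Zfp105, a zinc finger gene, went from 0.166, 0.143 and 0.184 to 0.0164, 0.0115 and 0.0170, the largest fall among genes listed in all 48 libraries once predicted genes were set aside. Its interval half-life was 17.3 min. Zfp57, which protects the methylation of imprinted genes (ENSMUSG00000036036, chr17:37001163-37010635, plus strand), kept most of its level until 60 min. At 30 min its mean was 0.970 ± 0.139 (SD, n = 3), and at 60 min the libraries of Zfp57 held 0.668, 0.718 and 0.905. At 120 min they held 0.143, 0.156 and 0.174, and at 240 min the mean was 0.0225 ± 0.00414. The log2 difference of Zfp57 was -2.27 ± 0.22 with an adjusted p of 0.0208.

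**Figure D2:**
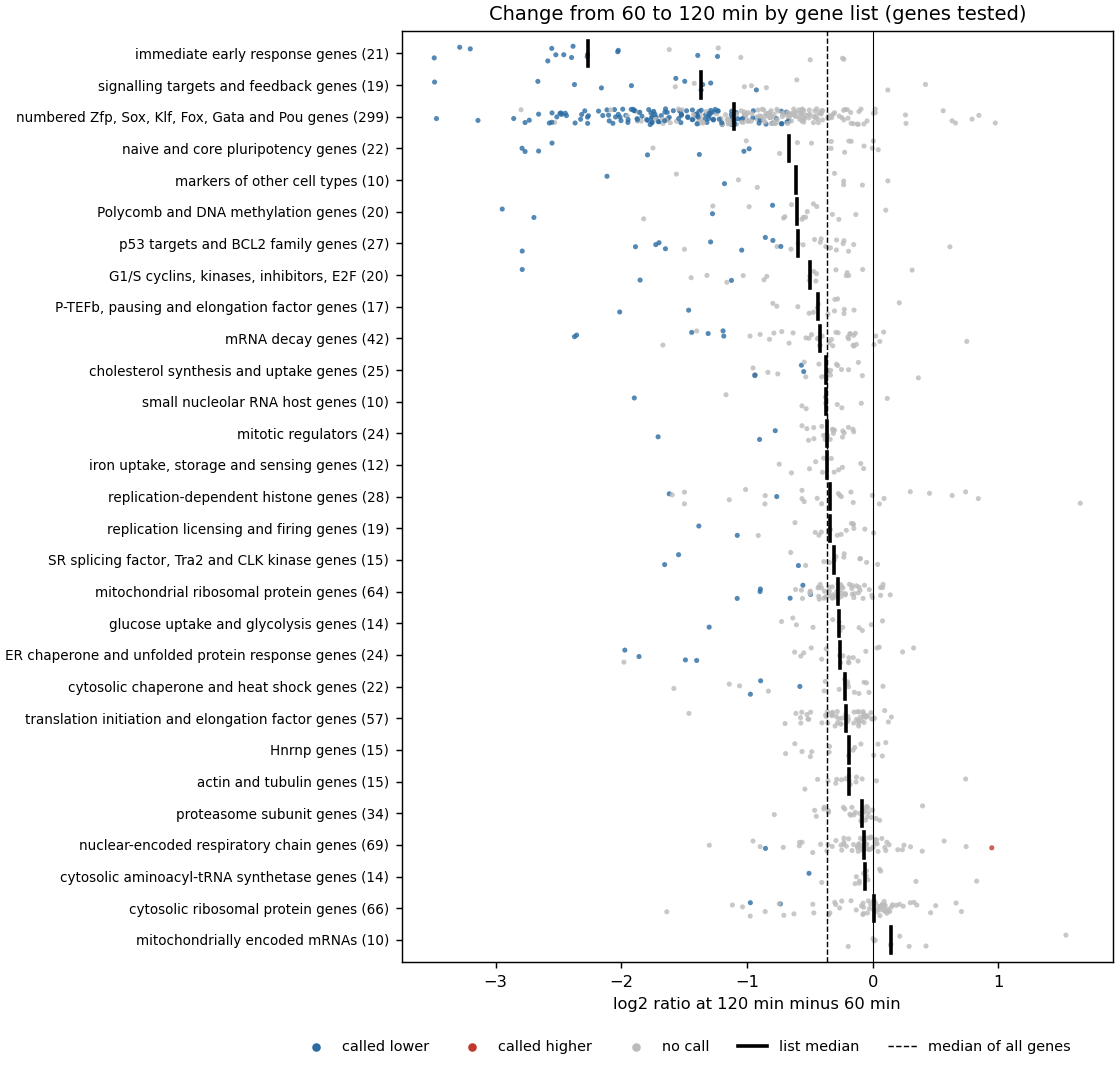
Log2 ratio at 120 min minus 60 min for the tested members of 29 gene lists, 1 point per gene, ordered by list median (black bar), with the number of genes tested in brackets and the median of all genes dashed. Immediate early genes have the lowest median, -2.27, and mitochondrially encoded mRNAs the highest, 0.14, and points called lower are concentrated in the upper rows.

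The machinery that flavopiridol acts on was represented by P-TEFb and its partners. Of 17 tested P-TEFb, pausing and elongation factor genes 2 were called lower, 11.8% against 12.1% of all genes, with a list median of -0.43. Both belong to the 7SK complex that keeps P-TEFb inactive. Mepce, the enzyme that caps 7SK RNA, went from 0.272, 0.237 and 0.290 to 0.0553, 0.0701 and 0.0734, and Hexim1, the inhibitor that binds P-TEFb, went from 0.504, 0.469 and 0.521 to 0.184, 0.193 and 0.166. Their interval half-lives were 29.8 and 41.0 min. The cyclin subunits Ccnt1 and Ccnt2, named after their values were seen, had log2 differences of -0.79 ± 0.26 and -0.76 ± 0.27, did not overlap and were not called.

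Of 42 tested genes of mRNA decay itself 6 were called lower, 14.3% against 12.1% of all genes, and 0 higher. Their median of -0.42 was close to that of all genes. Tob2, which brings the CCR4-NOT deadenylase to mRNAs, went from 0.234, 0.192 and 0.269 to 0.0395, 0.0482 and 0.0456, an interval half-life of 25.3 min. Its relative Tob1, named after its values were seen, had a log2 difference of -2.36 ± 0.37. Smg8, a regulator of the kinase of nonsense-mediated decay, went from 0.527, 0.469 and 0.550 to 0.173, 0.186 and 0.211. Smg6, the endonuclease of the same pathway, had 0.792, 0.817 and 0.867 at 60 min and 0.771, 0.823 and 0.905 at 120 min, with an adjusted p of 0.959.

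Among Polycomb and DNA methylation genes 4 of 20 were called lower, 20% against 12.1% of all genes, and 0 higher. Their median log2 difference was -0.60. Cbx8, a subunit of Polycomb repressive complex 1, went from 0.297, 0.210 and 0.463 to 0.0509, 0.0544 and 0.0384. Cbx2, a subunit of the same complex named after its values were seen, crossed the 0.5 level with a log2 difference of -1.28 ± 0.18. Dnmt1, the maintenance DNA methyltransferase, had 0.715, 0.454 and 0.749 at 60 min and 0.536, 0.654 and 0.862 at 120 min, on a mean of only 3 inferred reads.

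Splicing regulators of the SR and CLK families had 3 of 15 members called lower, 20% against 12.1% of all genes. The CLK kinases, which phosphorylate SR proteins, led them: Clk1 went from 0.510, 0.543 and 0.622 to 0.187, 0.194 and 0.191, and Clk4 from 0.693, 0.560 and 0.835 to 0.255, 0.215 and 0.189. Srsf3, an SR protein, had 0.682, 0.745 and 0.853 at 60 min and 0.576, 0.907 and 0.901 at 120 min, and its groups overlapped. Among 15 Hnrnp genes, which encode the abundant proteins that coat nuclear RNA, 0 were called in the limma fit and 4 were lower without overlap, against 39.5% of all genes, and their median log2 difference was -0.19.

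Cell cycle genes were called at shares near that of all genes, 12.1%. Of 20 tested G1 and S phase genes 3 were called lower, of 19 replication licensing genes 2, and of 24 mitotic regulators 3, which is 15.0%, 10.5% and 12.5%, with medians of -0.50, -0.34 and -0.37. Without replicate 1 at 120 min the counts were 1, 1 and 2. Cdkn1a, the p21 inhibitor of cyclin-dependent kinases and a target of p53, went from 0.203, 0.206 and 0.197 to 0.0201, 0.0311 and 0.0400, with 14.5% of its 60 min level left. Cdt1, which loads the replicative helicase (ENSMUSG00000006585, chr8:122568015-122573554, plus strand), went from 0.640, 0.539 and 0.569 to 0.229, 0.205 and 0.235, an interval half-life of 43.4 min. Gins3, part of the same helicase when active, went from 0.472, 0.488 and 0.604 to 0.188, 0.311 and 0.253.

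The mitotic kinase Nek2 went from 0.645, 0.619 and 0.635 to 0.305, 0.337 and 0.380, an interval half-life of 66.7 min. Birc5, or survivin, a subunit of the chromosomal passenger complex, went from 0.0896, 0.0735 and 0.0744 to 0.0231, 0.0198 and 0.0307, so that it was already low before the interval. Mcm5, a subunit of the replicative helicase, and Mad2l1, a spindle checkpoint protein, had log2 differences of 0.01 ± 0.15 and -0.15 ± 0.17 and were not called. E2f1, the transcription factor of S phase entry, went from 1.04, 0.663 and 0.608 to 0.348, 0.318 and 0.367 on a mean of 10.2 inferred reads.

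Of 27 tested p53 targets and BCL2 family genes 10 were called lower, 37.0% against 12.1% of all genes, and 0 higher. Their median was -0.59, and 8 crossed the 0.5 level inside the interval, against 8.6% of all genes. Without replicate 1 at 120 min 5 were lower and 1 higher, and relative to the median gene 3 were lower and 1 higher. Bbc3, or Puma, a trigger of apoptosis that was named after its values were seen, went from 0.582, 0.692 and 0.606 to 0.243, 0.187 and 0.156. Mcl1, a protector from apoptosis also named after its values were seen, went from 0.402, 0.440 and 0.482 to 0.127, 0.209 and 0.219. Bad, another trigger of apoptosis, fell from 0.642, 0.510 and 0.673 to 0.160, 0.196 and 0.194 on a mean of 3.83 inferred reads. Fas, a death receptor, was not called (adjusted p = 0.648).

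ER stress, cytosolic chaperone and cholesterol genes were called lower in 16.7%, 13.6% and 16% of cases, near the 12.1% of all genes. Of 24 ER chaperone and unfolded protein response genes 4 were called lower, or 2 without replicate 1 at 120 min. Trib3, a pseudokinase that stress induces, held 0.585, 0.583 and 0.582 at 60 min and 0.132, 0.157 and 0.159 at 120 min. Atf4, the transcription factor of the integrated stress response, went from 0.232, 0.248 and 0.256 to 0.0778, 0.0898 and 0.0952. Manf, a secreted folding factor, had 0.824, 0.773 and 0.708 at 60 min and 0.663, 0.832 and 0.878 at 120 min.

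Of 22 cytosolic chaperone genes 3 were called lower, led by Bag3, a partner of HSP70, with 0.752, 0.600 and 0.690 at 60 min and 0.310, 0.350 and 0.380 at 120 min. Hspa1b, an inducible HSP70, fell with a log2 difference of -0.89 ± 0.18, although reads may be shared with its near-identical copy Hspa1a. Cct5, a subunit of the chaperonin that folds actin and tubulin, had a log2 difference of -0.03 ± 0.11. Of 25 cholesterol genes 4 were called lower, or 2 without replicate 1 at 120 min and 0 relative to the median gene. Among the 4 were Srebf1, a master regulator of lipid synthesis, from 0.700, 0.709 and 0.693 to 0.436, 0.322 and 0.350, and the enzyme Mvd, from 0.899, 0.915 and 0.861 to 0.653, 0.593 and 0.563. Idi1, another enzyme of the pathway, was not called (adjusted p = 0.781).

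Housekeeping lists are set here against 12.1% of all genes called lower and 39.5% lower without overlap. Of 34 proteasome genes 0 were called in the limma fit, 8 were lower without overlap, and the median was -0.09. Of 57 translation factor genes 0 were called and 23 were lower without overlap, a share close to that of all genes, with a median of -0.21, and Eef1b2, an elongation factor subunit, had a log2 difference of -0.002 ± 0.11. Of 14 cytosolic aminoacyl-tRNA synthetase genes 1 was called, Vars, the enzyme for valine, which went from 0.986, 0.896 and 0.904 to 0.685, 0.604 and 0.673. Vars was not called without replicate 1 at 120 min and was back at 1.05 ± 0.0196 (SD, n = 3) at 240 min.

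Of 69 nuclear-encoded respiratory chain genes 1 was called lower and 1 higher, around a median of -0.07. Ndufv3, a subunit of complex I, fell from 0.660, 0.667 and 0.741 to 0.343, 0.410 and 0.393, and Ndufb2, another subunit of the same complex, rose from 0.662, 0.610 and 0.470 to 0.912, 1.29 and 1.16. Sdha, of complex II, had a log2 difference of 0.001 ± 0.11. Of 64 mitochondrial ribosomal protein genes 6 were called lower, Mrpl44 among them, or 2 without replicate 1 at 120 min, and of 15 actin and tubulin genes 0 were called, although 10 were lower without overlap, against 39.5% of all genes. In glycolysis 1 of 14 genes was called: Slc2a1, the glucose transporter GLUT1, went from 0.588, 0.864 and 0.654 to 0.252, 0.275 and 0.320, whereas Ldhb, a lactate dehydrogenase, had a log2 difference of -0.01 ± 0.11.

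Of 66 cytosolic ribosomal protein genes 2 were called lower, and the median was 0.01 in the authors' scaling, -0.11 with libraries scaled to mitochondrial mRNAs and 0.38 relative to the median gene. The 2 were Rps28, from 0.753, 1.03 and 0.993 to 0.463, 0.457 and 0.482, and Rpl28, from 0.918, 0.874 and 0.888 to 0.582, 0.498 and 0.534, and reads may be shared with pseudogenes of this family. Mitochondrially encoded mRNAs, which a separate polymerase transcribes, had 0 of 10 members called and a median of 0.14. Some of them varied widely between replicates: mt-Co3, a subunit of complex IV, had 0.942, 3.29 and 5.43 at 60 min and 0.470, 5.89 and 6.10 at 120 min, so that replicate 1 was lowest at both times.

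Of 12 genes of iron metabolism 0 were called and 3 were lower without overlap, against 39.5% of all genes. Tfrc, the transferrin receptor whose mRNA is known to be stabilised when iron is scarce, had 0.501, 0.619 and 0.690 at 60 min and 0.340, 0.558 and 0.570 at 120 min, with overlapping groups (log2 difference -0.33 ± 0.26, adjusted p = 0.420). Fth1, the ferritin heavy chain, had a log2 difference of -0.07 ± 0.12. Nf1, a long gene that encodes a GTPase activator of RAS, had 0.558, 0.660 and 0.761 at 60 min and 0.555, 1.03 and 0.862 at 120 min, and was not called (adjusted p = 0.502). Snhg5, a noncoding host of small nucleolar RNAs, was the 1 called member of 10 in its list, 10% against 12.1% of all genes. Without replicate 1 at 120 min 0 were called. Snhg5 went from 0.138, 0.0877 and 0.114 to 0.0188, 0.0536 and 0.0265.

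Of 28 replication-dependent histone genes, whose main transcripts carry no poly(A) tail, 2 were called lower, 7.14% against 12.1% of all genes. Hist1h1c, a linker histone, went from 0.816, 0.813 and 1.08 to 0.506, 0.571 and 0.507, and Hist1h2bn was called on a mean of 2.33 inferred reads. Markers of other cell types that a stem cell culture could hold had 10 tested members, 2 of them called lower, 20% against 12.1% of all genes. Sox1, a neural progenitor factor, went from 0.296, 0.256 and 0.351 to 0.0463, 0.0888 and 0.0798, and Eomes, a trophectoderm and mesendoderm factor, from 0.611, 0.748 and 0.663 to 0.245, 0.359 and 0.296. Both are transcription factors, with means of 43.3 and 23.5 inferred reads, against a median of 49.2 over all genes.

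Besides the genes already described, the 10 largest falls among genes listed in all 48 libraries included genes of cell division, Wnt reception and membrane traffic. Mad2l1bp, which silences the spindle checkpoint, went from 0.437, 0.398 and 0.341 to 0.0364, 0.0799 and 0.0483. Fzd10, a Wnt receptor, went from 0.266, 0.233 and 0.303 to 0.0379, 0.0332 and 0.0358, with 13.4% of its 60 min level left. Arl4d, a small GTPase, went from 0.146, 0.109 and 0.139 to 0.0136, 0.0262 and 0.0165.

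Ddias, an inhibitor of apoptosis after DNA damage, went from 0.252, 0.240 and 0.290 to 0.0275, 0.0369 and 0.0478, and Bhlhe40, a transcriptional repressor of the circadian system, from 0.214, 0.300 and 0.256 to 0.0202, 0.0341 and 0.0787. In each of these genes the highest library at 120 min was below the lowest at 60 min, which the rule for naming them required. The span of these 10 genes on the genome was 2.29 to 17.9 kb.

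The 8 largest rises ended at mean levels near or above the starting level. Cux1, a homeobox transcription factor (ENSMUSG00000029705, chr5:136248135-136567490, minus strand), had 0.262, 0.230 and 0.358 at 60 min and 0.663, 1.09 and 1.02 at 120 min, 3.24-fold higher, and its mean was 2.35 ± 0.165 (SD, n = 3) at 240 min. Tcf12, a basic helix-loop-helix factor (ENSMUSG00000032228, chr9:71842688-72111871, minus strand), rose from 0.690, 1.31 and 1.27 to 2.39, 3.08 and 3.67 and was at 1.20 ± 0.216 at 240 min. Clasp1, which stabilises microtubule plus ends, rose from 0.582, 0.493 and 0.949 to 1.45, 1.78 and 2.22.

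Dtnbp1, a subunit of a complex for lysosome-related organelles, rose from 0.878, 1.05 and 1.15 to 1.97, 3.41 and 3.18 on a mean of 9.83 inferred reads. Trps1, a GATA-type repressor, rose from 0.484, 0.599 and 0.691 to 0.903, 1.40 and 1.36, and Hdac4, a class IIa histone deacetylase, from 0.433, 0.398 and 0.490 to 0.658, 0.960 and 0.894. Arpc4, a subunit of the actin-nucleating ARP2/3 complex, rose from 0.466, 0.333 and 0.244 to 1.05, 0.958 and 1.05 on a mean of 6.67 inferred reads. In all 8, Ndufb2 included, the lowest library at 120 min was above the highest at 60 min, which the rule for naming them required.

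Nuclear and cytosolic values of the 8 genes are given without a test. In nuclear RNA the log2 difference from 60 to 120 min was 1.77 for Cux1, 1.43 for Tcf12, 1.62 for Clasp1, 1.37 for Hdac4 and 1.06 for Dtnbp1, and in cytosolic RNA it was 1.04, 0.57, 0.31, -0.12 and -0.16 in the same order. Trps1 had the lower value in nuclear RNA, with 0.49 against 1.13, Ndufb2 had 0.79 and 0.70, and Arpc4 had 0.28 and -0.55. Of the 8 genes, 5 span more than 100 kb on the genome, as do 9.54% of all tested genes, a feature that was looked at after the values were seen. The 37 genes called higher had a median span of 7.24 kb, against 15.3 kb for all tested genes, and 27.0% of them exceeded 100 kb. Genes called higher had a median of 12.3 inferred reads, against 65.9 for genes called lower and 49.2 for all genes.

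**Figure D3:**
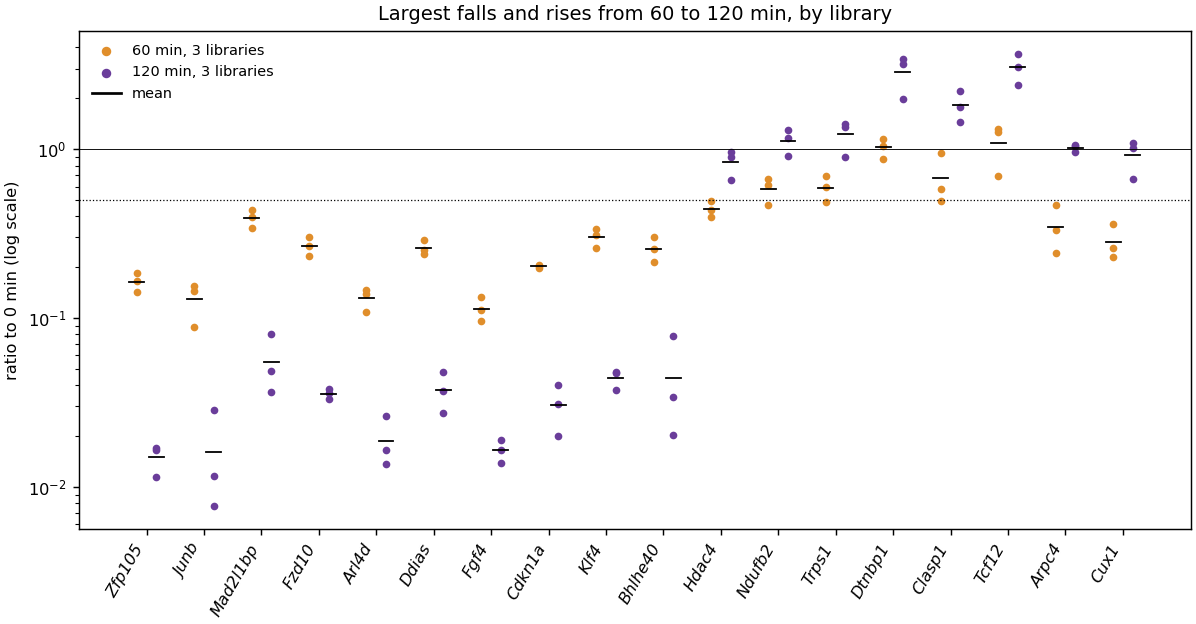
Ratio to 0 min on a logarithmic axis in each of the 6 whole-cell libraries for the 10 largest falls and the 8 largest rises among named genes, with bars at the mean of 3 libraries. No gene has overlapping points between the 2 times, which the rule for naming them required. The falls start below 0.5 at 60 min while the rises end between 0.658 and 3.67 at 120 min.

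Genes of intermediate stability were described by the 0.5 level. In 1182 genes, 8.6% of those tested, all 3 libraries at 60 min were above 0.5 and all 3 at 120 min were below it. A further 1224 genes were below 0.5 in all libraries by 60 min, and 5482 genes were above 0.5 in all libraries at 120 min. The remaining 5854 genes had libraries on both sides of the level at one time or rose through it. With the mean of 3 libraries in place of each library, 3392 genes crossed.

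The crossing genes had median levels of 0.836 at 30 min, 0.649 at 60 min, 0.362 at 120 min and 0.207 at 240 min, and an interval half-life of 67.9 min at their median log2 difference. limma called 643 of them lower. They held a median of 102 inferred reads, against 15.5 for the genes already below 0.5 and 144 for those still above it, and the genes already below 0.5 had a median of 4 exons, against 8 and 10 in the other classes.

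The named genes that crossed came from many pathways. They included Zfp57, Cdt1, Clk1, Clk4, Trib3, Slc2a1, Srebf1, Bag3, Nek2, E2f1, Eomes, Hspa1b, Rps28, Mrpl44 and Ndufv3, with interval half-lives between 26.4 min for Zfp57 and 70.3 min for Ndufv3. Ubtd1, a ubiquitin-like protein, went from 0.896, 0.906 and 0.892 to 0.440, 0.421 and 0.387, and its mean at 30 min had been 0.887 ± 0.0558. By list, against 8.6% of all genes, 8 of 27 members crossed in the p53 and BCL2 list, 4 of 19 in replication licensing and 4 of 20 in G1 and S phase genes. Of the 21 immediate early genes 1 crossed and 16 were already below the level, and of 34 proteasome genes 0 crossed and 30 stayed above it.

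**Figure D4:**
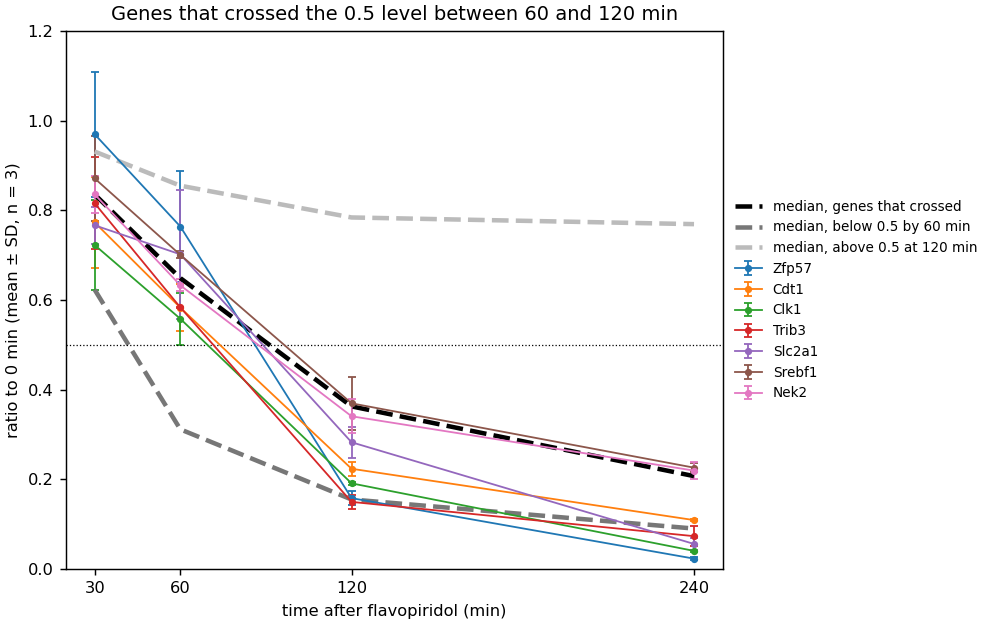
Mean ratio to 0 min with SD (n = 3) at 30, 60, 120 and 240 min for 7 named genes that crossed 0.5 between 60 and 120 min, with dashed medians of 3 classes of genes. The crossing median passes from 0.649 at 60 min to 0.362 at 120 min, between the class already at 0.311 by 60 min and the class still at 0.784 at 120 min.

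Transcript features were compared with the log2 difference over 10079 protein-coding genes with an annotated 3′ UTR, as descriptions across genes, which are not independent replicates. The number of exons of the representative transcript had a Spearman correlation of 0.25 with the log2 difference, and 0.18 to 0.25 in the 9 pairs of single libraries. Among genes with the fewest exons, 1 to 5, the median log2 difference was -0.57 and 23.9% of genes were called lower. Among those with the most, over 15, the median was -0.26 and 5.9% were called lower. The length of the gene on the genome gave a correlation of 0.21, but it ranged from 0.04 to 0.27 over library pairs. The length of the 3′ UTR and of the coding sequence gave -0.05 and -0.02, and both changed sign between library pairs. The number of inferred reads, which moves with detection, had a correlation of 0.20 with the log2 difference.

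AU-rich elements in 3′ UTRs recruit proteins that shorten poly(A) tails, and the nonamer TTATTTATT is a common form of their core. It was searched on the sense strand of the annotated 3′ UTRs, counting overlapping copies, and was found in 761 of 10079 UTRs of tested genes, 7.55%. Genes with no copy had a median log2 difference of -0.36, genes with 1 copy -0.41 and genes with at least 2 copies -0.49. They were called lower in 13.5%, 14.5% and 18.1% of cases, against 13.6% of all genes with a 3′ UTR. The shares were also taken within groups of genes by 3′ UTR length. Among genes with the longest 3′ UTRs, which held 414 of the 761 genes with a copy, 11.6% with a copy and 12.2% without one were called lower. In the other groups, from the shortest UTRs up, 22.7%, 20.4% and 18.5% with a copy were called lower. Without a copy these shares were 11.2%, 16.3% and 14.1%. Those groups held 44, 103 and 200 genes with a copy. Among the 530 crossing genes that were called lower and had a 3′ UTR, 33 held it, 6.23%. A match is a description and no evidence of a functional site.

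The first copy in the UTR is shown, with 10 bases on either side and the nonamer in capitals, for the 5 genes of the naming rule that hold one and for the 3 crossing genes called lower with the largest falls among those that hold one, which were chosen after their values were seen. These are 5′ to 3′ in the sense of the transcript, from GENCODE M21 transcripts on GRCm38, and they show that the same letters occur in genes that fell and in genes that rose.
Neu3: ttttttaaatTTATTTATTtactatatgt
Spsb1: caaaggccatTTATTTATTccacttagaa
Mblac2: tgcctcctttTTATTTATTttttaatttt
E2f1: aatggagcgtTTATTTATTtatcgaggcc
Fos: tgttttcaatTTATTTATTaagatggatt
Trps1: cctgctgtatTTATTTATTttcttttggt
Tcf12: actacaaattTTATTTATTgttatggaac
Cux1: ttgtattttcTTATTTATTattattatta

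Of the crossing genes, Neu3, a sialidase (chr7:99812848-99812876, minus strand), Spsb1, an adaptor of a ubiquitin ligase (chr4:149897650-149897678, minus strand), and Mblac2 (chr13:81750884-81750912, plus strand) had log2 differences of -1.93, -1.55 and -1.49. E2f1 (chr2:154560033-154560061, minus strand) was called lower and Fos (chr12:85477103-85477131, plus strand) was not called. Trps1 (chr15:50659663-50659691, minus strand), Tcf12 (chr9:71846194-71846222, minus strand) and Cux1 (chr5:136271873-136271901, minus strand) were called higher, with log2 differences of 1.04, 1.52 and 1.70.

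The next comparison asked whether a gene changed at another pace in this interval than in its neighbours, per hour and in the same libraries of whole-cell RNA. Over 12762 genes listed in all 12 libraries, the median hourly change in log2 was -0.48 from 30 to 60 min, -0.35 from 60 to 120 min and -0.12 from 120 to 240 min. The neighbouring intervals share the libraries at 60 or at 120 min with the middle one, so the values are set side by side and only the contrast between intervals was tested.

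Against the earlier interval, limma called 0 of 12762 genes in either direction (0% and 0%), with 705 genes at an unadjusted p under 0.05. limma-voom on the inferred reads called 2 genes lower and 6 higher. Genes named by the smallest p in this contrast all missed the threshold. Eif4a2, an RNA helicase of translation initiation, changed by -3.59 per hour from 30 to 60 min and by -0.33 per hour from 60 to 120 min (adjusted p = 0.249). Hdac4 changed by -1.68 and then by 0.91 per hour (adjusted p = 0.198). Ubtd1 changed by 0.04 and then by -1.11 per hour (adjusted p = 0.465), and Coq7, an enzyme of ubiquinone synthesis, by 0.91 and then by -0.57 per hour (adjusted p = 0.442).

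Against the later interval, limma called 295 genes lower, 2.31% of those tested, and 18 higher, 0.141%. Lower means a lower hourly change in the middle interval than in the later one, in which a gene could also rise. The split depended on the scaling: relative to the median gene 132 were lower and 82 higher, and with mitochondrial or ribosomal protein scaling 106 or 109 were lower and 11 or 16 higher. The 295 had a median hourly change of -1.41 from 60 to 120 min and of 0.13 from 120 to 240 min. Klf4 changed by -2.77 per hour in the middle and by -0.19 per hour in the later interval, a difference of -2.58 ± 0.24 per hour (adjusted p = 0.00432). Ier2 changed by -2.52 and -0.05 per hour, and by then 0.0217 ± 0.00314 of its starting level was left at 240 min.

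Trib1, a pseudokinase of the immediate early list, changed by -2.40 and then by 1.26 per hour, from 0.0216, 0.0205 and 0.0174 at 120 min to a mean of 0.113 ± 0.00745 at 240 min. In the other direction, Pvt1, a long noncoding RNA (ENSMUSG00000097039, chr15:62037986-62378096, plus strand), rose from 0.868, 0.967 and 0.997 at 60 min to 1.50, 1.74 and 1.77 at 120 min. Pvt1 was at 0.868 ± 0.0807 at 240 min, so that the difference between the intervals was 1.29 ± 0.17 per hour (adjusted p = 0.00928). Tcf12 and Dtnbp1 had the same shape, with differences of 2.19 ± 0.38 and 2.11 ± 0.38 per hour. Without replicate 1 at 120 min, the low library, 194 genes were lower and 26 higher, and the median difference over all genes moved from -0.21 to -0.06. Leaving out replicate 2 or replicate 3 at all times left 0 calls in this contrast, and leaving out replicate 1 left 4.

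By list, the medians of the 3 intervals were set side by side. Immediate early genes had median hourly changes of -2.57, -2.15 and -0.25 in the 3 intervals, signalling genes -2.01, -1.32 and -0.30, and the transcription factor families -1.53, -1.10 and -0.38. Pluripotency genes had -0.55, -0.67 and -0.24, with the middle value the lowest. Cholesterol genes had -0.38, -0.38 and -0.72, and ER stress genes -0.46, -0.26 and -0.49, so that in both lists the later interval had the fastest change. These list medians were not tested.

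**Figure D5:**
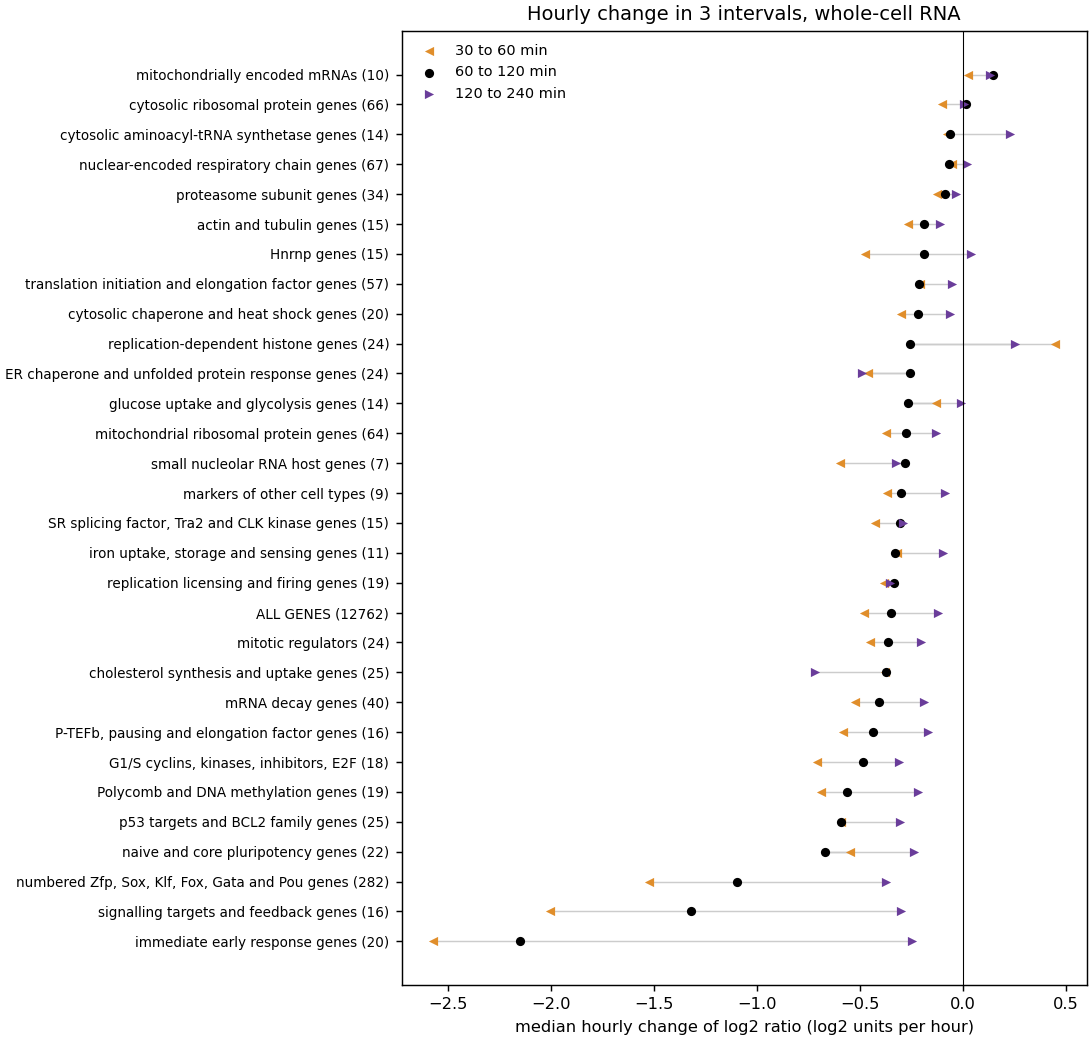
Median hourly change of the log2 ratio in whole-cell RNA for 29 gene lists and all genes, in 3 intervals, with the number of genes listed at all 4 times in brackets. Immediate early genes reach -2.15 per hour in the middle interval (circles), and cholesterol genes reach -0.72 per hour in the later interval against -0.38 in the middle one.

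The last comparison asked whether the change from 60 to 120 min differed between whole-cell and nuclear RNA. limma called 0 of 13062 genes in either direction (0% and 0%), with 1372 at an unadjusted p under 0.05, and limma-voom on the inferred reads called 40 genes lower and 20 higher in whole-cell RNA. The median difference of the changes was -0.08. The genes with the smallest p did not pass the threshold. Sugp2, a protein with splicing factor motifs, had a log2 difference of -0.85 in whole-cell RNA and of -2.53 in the nucleus (difference 1.69 ± 0.29, adjusted p = 0.147), and Fnbp4, a formin-binding protein, had -0.67 and -1.79. Ppcs, an enzyme of coenzyme A synthesis, had -1.66 in whole-cell RNA and 0.90 in the nucleus (difference -2.56 ± 0.41, adjusted p = 0.131).

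Values of the other fractions are given for a few fast genes without a test. Ier2 had a log2 difference of -1.10 in the nucleus, against -2.52 in whole-cell RNA, and cytosol and membrane had -2.44 and -1.64. Klf4 had -1.95 in nuclear and -2.76 in cytosolic RNA, and Nodal -2.07 and -3.19. Zfp57 had the opposite order, with -2.93 in nuclear RNA, -1.87 in cytosolic RNA and -1.95 at the membrane. In the limma contrast Ier2 had a difference between whole-cell and nuclear RNA of -1.42 ± 0.34 with an adjusted p of 0.213, so the difference of this gene did not pass the threshold.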

How the data were processed

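The data comprised whole-cell poly(A) RNA at 60 and 120 min of flavopiridol, with 3 libraries per time. Sample titles gave the groups and the replicate numbers. The submitters' processing notes name STAR 2.7.6, RSEM 1.3.3 and mm10, and the authors scaled libraries on genes with known half-lives above 14 h and divided by the level at 0 min. What they deposited is a ratio to 0 min per gene and library, although their heading names a read count. Genes at 0 are not listed: 163 genes listed in every library at 60 min were in none at 120 min, and 41 the reverse, with a median of 1.67 inferred reads where listed. The scaling takes the reference genes as unchanged, so slow changes are relative to them. The 0 min libraries were not analysed here. The last time point was taken as 240 min, as in the titles, where the protocol text has 180 min.

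The log2 ratio was used with no pseudocount. The test was limma's moderated one (limma 3.58.1, R 4.3.3, intensity trend in eBayes), two-sided, with Benjamini-Hochberg adjustment and a threshold of 0.05, fitted over all genes listed in every library of a comparison, without covariates. The contrast with neighbouring intervals used 12 whole-cell libraries, and that with nuclear RNA used 12 whole-cell and nuclear libraries. Quotients of the ratios between libraries were those of whole numbers for 99.96% of genes (relative tolerance 1e-08), which gave inferred reads up to a common factor per gene. They are lower bounds and were used as a guide to depth and in limma-voom as an added alternative, and no interval is given from them. p-values measure the spread between these cultures.

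The members and gene lists were chosen with earlier results of these data known. Among genes listed in all 48 libraries whose symbol is no predicted gene, the text names the 10 largest falls and 8 largest rises with an adjusted p under 0.05 and groups that did not overlap. It then names, per gene list, the 2 called members with the smallest adjusted p and the member with the largest, the 3 genes with the smallest adjusted p in each direction of the other contrasts, and Tfrc and Nf1, though not all of these are described. Positions and 3′ UTRs came from GENCODE M21 on GRCm38, and symbols were found for 23786 of 23862 identifiers. Figures and correlations were made in Python 3.11.15 with scipy. The fit was tested on simulated ratios, with 200 of 13742 genes changed. In the 6 libraries it found 61% of changes of 2 log2 units and 17% of changes of 1 unit, with 3 calls among unchanged genes. The simulation drew independent noise per gene, with as many rises as falls and no shift of whole libraries. In the real data 83.6% of genes had a log2 difference below 0, so these rates need not hold for them. Alternatives covered the replicate block, a pseudocount of 0.1, 3 other library scalings, limma without trend or robust, other gene filters, a fit on 12 libraries, each library left out, the time 180 min, and the added voom, read filter and library settings.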

Additional observations from a re-analysis of the deposited data

Results flagged for a closer look

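By the contrast between intervals in limma, the hourly change from 60 to 120 min differed from that from 120 to 240 min in both directions. It was lower in the middle interval in 295 genes, whose median in the later interval was 0.13 per hour, and higher there in 18. Relative to the median gene of each library these counts were 132 and 82. The test is that of the difference itself (limma, adjusted p under 0.05). Over the 10694 genes listed in all 48 libraries, library medians were averaged per time, as log2 ratios for 120 and then 240 min. These means were -0.78 and -1.03 in whole-cell RNA and -0.92 and -1.43 in nuclear RNA. Cytosolic RNA had -0.55 and -1.07, and the membrane fraction -0.71 and -1.08. The later fall of the median gene was thus smaller in whole-cell RNA than in any fraction. Whether the 295 and 18 genes reflect this was not tested.

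Among the genes named by this contrast, the difference was -2.58 log2 units per hour for Klf4, -2.47 for Ier2 and -3.66 for Trib1, and 2.19 for Tcf12, 2.11 for Dtnbp1 and 1.29 for Pvt1. Replicate 1 at 120 min, which entered both intervals, had a median log2 ratio of -1.01, against -0.74 and -0.73 in the other libraries at 120 min. Without this library 194 genes were lower and 26 higher, and the 6 named genes kept their direction and their call. Leaving out replicate 1 at all times left 4 genes lower and 0 higher, and leaving out replicate 2 or replicate 3 left 0 calls. Trib1 was at 0.0216, 0.0205 and 0.0174 at 120 min and at a mean of 0.113 at 240 min, with a mean of 20.5 inferred reads over the libraries at 60 and 120 min. Dtnbp1 held a mean of 9.83 over the same libraries.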

How the results depend on the processing

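For the change from 60 to 120 min, replicate number as a block left 0 genes lower and 0 higher (4659 at an unadjusted p under 0.05). Across genes, deviations of same-numbered libraries from their group means correlated at 0.08, 0.01 and 0.05. This correlation cannot show a shift shared by all genes of a library. Median log2 ratios of replicates 1, 2 and 3 were -0.54, -0.50 and -0.36 at 60 min and -1.01, -0.74 and -0.73 at 120 min, the same order. Whether the numbers pair the libraries was therefore not settled. In the contrast with the later interval the block gave 248 lower and 19 higher, and in the other contrasts 0. Centring on the median gene gave 409 lower, 122 higher and a median difference of 0.00036, voom 3253 lower, and the fit on 12 libraries 3381 lower and 83 higher. Leaving out 1 library gave 0 to 879 lower and 0 to 40 higher, and centring without replicate 1 at 120 min gave 0 lower, 0 higher and a median of 0.0017, where fewer samples entered.

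Against the earlier interval (0 and 0 genes), a pseudocount of 0.1 gave 2 lower and 24 higher, centring 1 and 2, voom 2 and 6, and leaving out 1 replicate 0 lower and 0 to 1 higher. Against the later interval (295 and 18), a pseudocount gave 707 and 34, centring 132 and 82, mitochondrial scaling 106 and 11, ribosomal protein scaling 109 lower, voom 518 and 53, and 180 min as last time 196 and 89. Leaving out replicates gave 0 to 194 lower and 0 to 26 higher. Against nuclear RNA (0 and 0), centring gave 1 and 5, voom 40 and 20, and leaving out 1 replicate 0 to 3 lower and 0 to 1 higher. The cause of these shifts was not tested.

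The crossing count was 3392 with means in place of single libraries, and 1308 to 1557 with 1 library left out. Mitochondrial scaling moved the median of all genes from -0.36 to -0.49. No called gene of the naming rule changed sign under any alternative run. Of the named genes' values for the change from 60 to 120 min under the alternatives, 510 lost the call, 7 gained it, 77 of uncalled genes moved by more than their SE and 1226 kept direction and side. Depth limits Fos, Dusp1, Bad, Dnmt1, Fas, Arpc4 and Hist1h2bn, with means under 7 inferred reads. Other low means were 9.83 for Dtnbp1, 17.5 for Junb and Birc5, 21.5 for Clasp1 and 26.8 for Tcf12. Zfp105, Arl4d and Ier5l held 29, 29.3 and 33.2, against a median of 49.2 over all genes.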
